A study of Mus musculus with 6 samples.

Results

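Of 5 mouse miRNAs linked to cholesterol and lipid metabolism, mmu-miR-33, mmu-miR-122, mmu-miR-148a, mmu-miR-185 and mmu-miR-378, the 3 with an assay under exactly that name, miR-122, miR-148a and miR-185, were followed across 6 aortas, while miR-33 and miR-378 were not analysed here. They were picked by name from 596 mouse miRNA assays, and all 3 were detected in every sample. The arrays, which read miRNAs by quantitative real-time PCR, were run on whole aortas of female Apoe-/- mice on a high-fat diet (21% crude fat, 0.15% cholesterol), started at 6 to 8 weeks of age and given for 12 weeks. The EC-Dicerflox group (3 mice) was VE-Cadherin-CreERT2Dicer1flox/flox/Apoe-/-, and the EC-DicerWT group (3 mice) consisted of VE-Cadherin-CreERT2Dicer1WT/WT/Apoe-/- littermates. All 6 mice lacked Apoe, carried the tamoxifen-inducible Cre and received tamoxifen for 5 days (2 mg per 20 g body weight). The comparison asks whether these miRNAs differ in the vessel when the endothelium loses Dicer, the ribonuclease that releases mature miRNAs from hairpin precursors. Cre is driven by the endothelial VE-cadherin promoter, so the deletion is aimed at the endothelium. The paper found Dicer mRNA unaffected in blood myeloid cells, and lower in endothelial cells isolated from the aorta and in the whole aorta. Dicer in smooth muscle cells and fibroblasts was not measured here. Values are those of the whole vessel wall, in which fewer cells of a type and less RNA per cell cannot be told apart.

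MiRNAs guide Argonaute proteins to messenger RNAs by base pairing of a short seed near the 5′ end, and each can damp many transcripts of a pathway at once. MiR-148a is known from the liver as a repressor of the LDL receptor and of the cholesterol exporter ABCA1. MiR-185 is known to repress the HDL receptor SR-BI and the sterol-sensing transcription factor SREBP-2. MiR-122 is the dominant miRNA of hepatocytes, where its inhibition lowers plasma cholesterol, and its known abundance is in the liver rather than in vessels.

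The mature sequences of miR-148a and of its 2 relatives on the array are given because they share a seed, shown in capitals (bases 2 to 8), and differ next to it. They are the strands that carry the unstarred names by convention, since the table of the arrays names no arm, and they were taken from RefSeq on GRCm38.p6.
miR-148a: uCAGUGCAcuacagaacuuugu
miR-148b: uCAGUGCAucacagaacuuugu
miR-152: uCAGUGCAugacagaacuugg
MiR-148a lies at chr6:51269829-51269850 (minus strand), within the span of the predicted gene Gm38821. MiR-148b lies at chr15:103285185-103285206 (plus strand) within Copz1, and miR-152 at chr11:96850439-96850459 (plus strand) within Copz2, so that these relatives sit in a pair of genes for related coat proteins of vesicle transport. Counted from the 5′ end with miR-148a first, miR-148b differed by C9U and U10C, and miR-152 by C9U, U10G and U20G and by a length of 21 in place of 22 bases. Whether the assays read the relatives was not tested. The gene of miR-185 lies within the span of Tango2 on chromosome 16. Of the 5 miRNAs, 2 matched a RefSeq mature strand that could be printed, miR-33 and miR-148a, and the others are given by name.

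By mean Ct, miR-148a stood first, miR-122 second and miR-185 last, but neither step in this order passed the adjusted threshold of 0.05. The level, defined as the mean cycle threshold (Ct) of 5 control small RNAs minus the Ct of the miRNA, is on the log2 scale if each PCR cycle doubles the product, and a Ct of 40 stands for not detected. MiR-148a had a mean Ct of 21.7 over the 6 samples, miR-122 of 24.0 and miR-185 of 25.7. By mean level in EC-DicerWT aortas they ranked 76th, 128th and 161st of the 596 assays, on the assumption that all assays amplify alike. MiR-148a was above miR-122 in 6 of 6 samples, by 2.26 ± 1.62 cycles (SD, n = 6; exact sign-flip test, two-sided, P = 0.031, the smallest possible with 6 samples, and 0.062 after adjustment over the 2 neighbouring pairs). MiR-122 was above miR-185 in 5 of 6 samples, by 1.76 ± 1.47 cycles (SD, n = 6; exact sign-flip test, P = 0.062, adjusted 0.062). In EC-Dicerflox replicate 3 this order was turned, with miR-122 0.21 cycles below miR-185.

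The estimate of miR-185 was lower in EC-Dicerflox aortas, at the unadjusted threshold only. Its level was -6.11, -6.38 and -6.14 in EC-Dicerflox aortas, against -5.53, -5.68 and -5.68 in EC-DicerWT aortas. All 3 EC-Dicerflox samples lay below all 3 EC-DicerWT samples, so the groups did not overlap. The change was -0.58 ± 0.20 log2 units (SE, 95% interval from -1.09 to -0.07), which corresponds to 66.9% of the EC-DicerWT level (47.1 to 95.1%). By limma the unadjusted P was 0.032 and the P adjusted over the 439 tested assays was 0.98, and the exact permutation P of 0.1 is the smallest that 3 against 3 samples allow. Of the 3 miRNAs, 1 thus passed the unadjusted threshold of 0.05 and 0 passed the adjusted one. Of all 439 tested assays, 21 (4.78%) passed the unadjusted limma threshold, 17 of them lower (3.87%) and 4 higher (0.911%), and 0 (0%) passed after adjustment. With U6 alone all 11 assays past the unadjusted limma threshold were lower, and with U6 and snoRNA135 19 of 20. Separation of the groups was found in 43 of the 439 assays (9.79%), of which 31 were lower (7.06%) and 12 higher (2.73%) in EC-Dicerflox aortas. The totals of 4.78% and 9.79% are near what a P under 0.05 and an exact P of 0.1 pass without any group difference. Neither the call nor the separation therefore sets miR-185 apart.

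MiR-185 was lower in each of 20 alternative fits, but its unadjusted call depended on the setting. Only a change of reference could have turned its sign. Filters, the handling of undetected wells, variance models, the block and the batch term could not move its change from -0.58. Groups that do not overlap keep their direction when samples are left out. The changes ran from -0.96 with U6 alone to -0.49 without EC-Dicerflox replicate 2, and 9 of the 20 fits gave an unadjusted limma P under 0.05. U6 alone lowered the median change of all tested assays by 0.38 log2 units and U6 with snoRNA135 lowered it by 0.16. Relative to that median miR-185 stood at -0.48 with each reference. For references common to all assays this distance is fixed, since they shift every change alike. It is therefore no check of miR-185. The call was lost in each of the 6 fits that left out 1 sample, where the unadjusted limma P ranged from 0.050 to 0.12. With the replicate number as a block the unadjusted limma P was 0.056, and with replicates 1 and 2 alone it was 0.091 at a change of -0.64. The third replicates of both groups stood over 2 cycles beyond every other sample, on the same side, in 22 of the 596 assays, none of them miR-122, miR-148a or miR-185. Smaller shifts are not seen with that margin. The mean control Ct was highest in the third replicates, at 20.36 in the EC-Dicerflox and 20.17 in the EC-DicerWT sample. The other samples had 19.44 to 19.87. A term for the third replicates left the change of miR-185 at -0.58 (unadjusted limma P of 0.039). The adjusted limma P of miR-185 lay between 0.64 and 0.999 over the 20 fits.

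**Figure D1:**
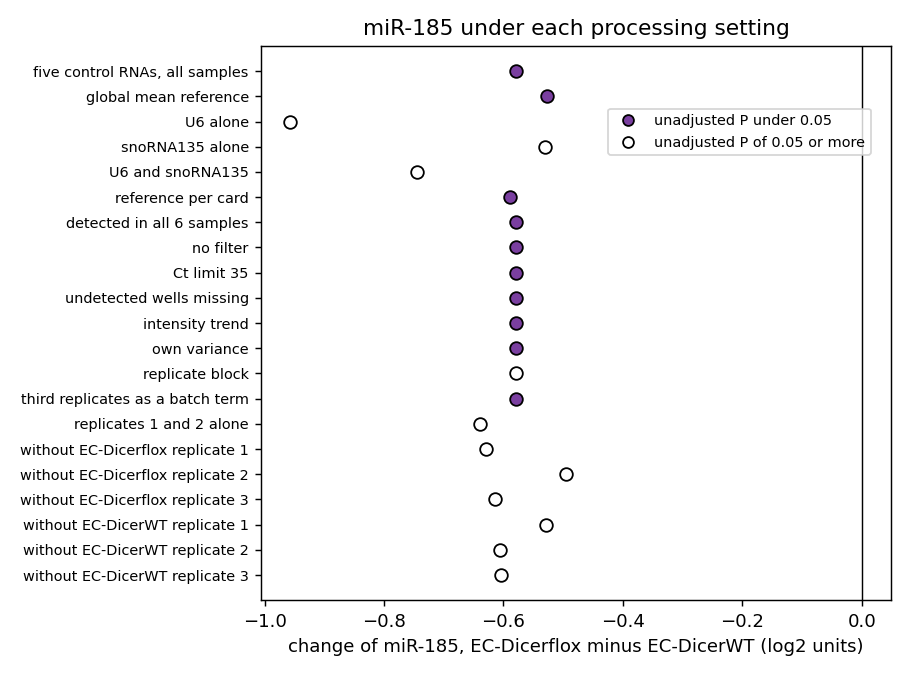
Change of miR-185 (EC-Dicerflox minus EC-DicerWT, log2 units, horizontal axis) under the main setting, in the first row, and the 20 alternatives, with filled points for an unadjusted limma P under 0.05. Every point lies below 0, between -0.96 and -0.49, and all 6 points that leave out 1 sample are open.

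For miR-148a, which had the lowest mean Ct of the 3, no change was resolved between the groups. Levels of -2.31, -2.08 and -1.52 in EC-Dicerflox aortas stood against -1.67, -1.86 and -1.97 in the controls. The highest and the 2 lowest values all came from EC-Dicerflox aortas, so that these samples bracketed the controls. The change was -0.13 ± 0.28 log2 units (SE, adjusted limma P of 0.99), and its 95% interval from -0.85 to 0.58 (55.5 to 149.9% of the EC-DicerWT level) leaves room for a change of the size of that of miR-185 in the same direction. U6 alone as reference gave -0.51, U6 together with snoRNA135 gave -0.30, and replicates 1 and 2 by themselves gave -0.42. Leaving out EC-Dicerflox replicate 1 gave 0.04, while omission of the third EC-Dicerflox sample gave -0.36.

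The same-seed relatives were both lower by estimate without passing the threshold. MiR-148b had levels of -5.35, -5.81 and -5.13 in EC-Dicerflox and of -4.93, -4.99 and -4.94 in EC-DicerWT aortas, again without overlap of the groups. Its change was -0.48 ± 0.25 log2 units (SE; limma P of 0.12 unadjusted and 0.99 adjusted, exact permutation P of 0.1). The SD was 0.03 log2 units in the EC-DicerWT and 0.35 in the EC-Dicerflox samples (n = 3 each). MiR-152, the most abundant of the seed family with a mean Ct of 20.1, changed by -0.23 ± 0.25 log2 units (SE, adjusted limma P of 0.99), and its groups overlapped.

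Differences between Ct values within a sample need no control RNA. MiR-148b lay 3.46 ± 0.37 cycles (SD, n = 3) below miR-148a in EC-Dicerflox and 3.12 ± 0.14 cycles (SD, n = 3) below it in the controls, and the gap between these means of 0.34 cycles was within the spread between mice (exact permutation P = 0.3, adjusted 0.6 over 4 such comparisons). For miR-152 the difference was 0.09 cycles (exact permutation P = 0.6, adjusted 0.8). MiR-185 lay below miR-148a by 3.80, 4.30 and 4.62 cycles with the deletion and by 3.85, 3.82 and 3.71 cycles without it. EC-Dicerflox replicate 1 fell within the range of the controls, and the difference of 0.45 cycles had an exact permutation P of 0.3 (adjusted 0.6), so a change of miR-185 apart from miR-148a was not resolved. This pair and that of miR-122 with miR-192 were added after the data were seen.

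**Figure D2:**
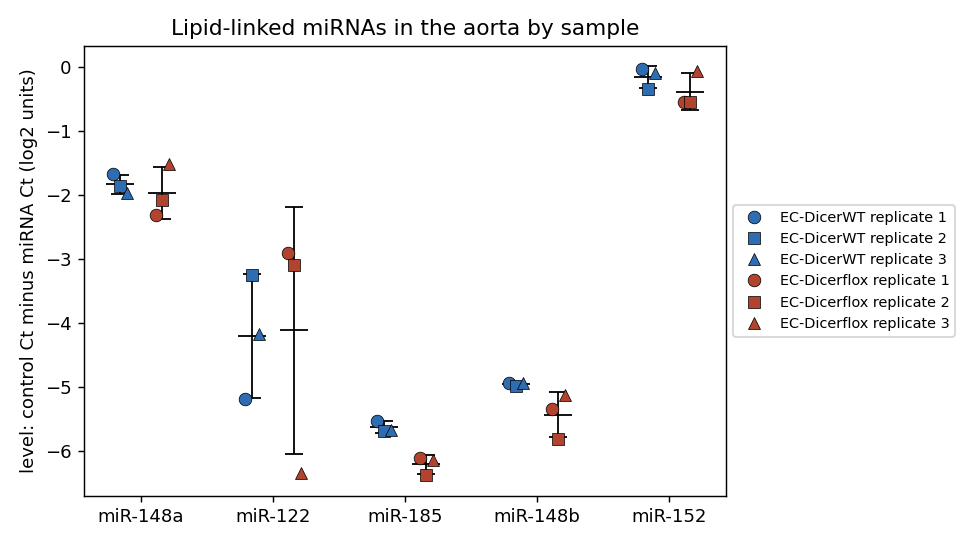
Level of the 3 miRNAs and of the relatives of miR-148a in each sample (vertical axis: control Ct minus miRNA Ct, log2 units), with the mean and SD of each group (n = 3). EC-Dicerflox samples of miR-185 and miR-148b lie below all EC-DicerWT samples, miR-148a and miR-152 overlap, and miR-122 spans 3.43 log2 units.

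MiR-122 was detected in every aorta, but at levels that varied widely between mice of the same group. Ct values of 22.3, 23.0 and 26.7 in EC-Dicerflox aortas gave levels of -2.91, -3.09 and -6.34. The controls had Ct values of 24.8, 22.7 and 24.3 and levels of -5.18, -3.26 and -4.18. The highest and the lowest of the 6 levels both belonged to EC-Dicerflox aortas, and the groups overlapped fully. The change was 0.09 ± 1.10 log2 units (SE, adjusted limma P of 0.99), with a 95% interval from -2.70 to 2.88, or from 15.4 to 735.3% of the EC-DicerWT level. These arrays thus could not resolve even a change of several fold in miR-122, and the sign of the estimate turned in 5 of the 20 alternative fits. Leaving out EC-Dicerflox replicate 3 gave 1.20, and leaving out EC-Dicerflox replicate 1 gave -0.51.

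The spread of miR-122 was unusual for its abundance. Its SD over the 6 samples was 1.37 log2 units, the 5th highest among the 143 assays that were detected in all samples with a mean Ct under 25, where the median SD was 0.30. Without EC-Dicerflox replicate 3 its SD was 0.95 and the 6th highest. The SD of miR-148a was 0.28, which ranked 80th in that class. MiR-185 had a SD of 0.34 over all samples and of 0.12 within the groups.

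**Figure D3:**
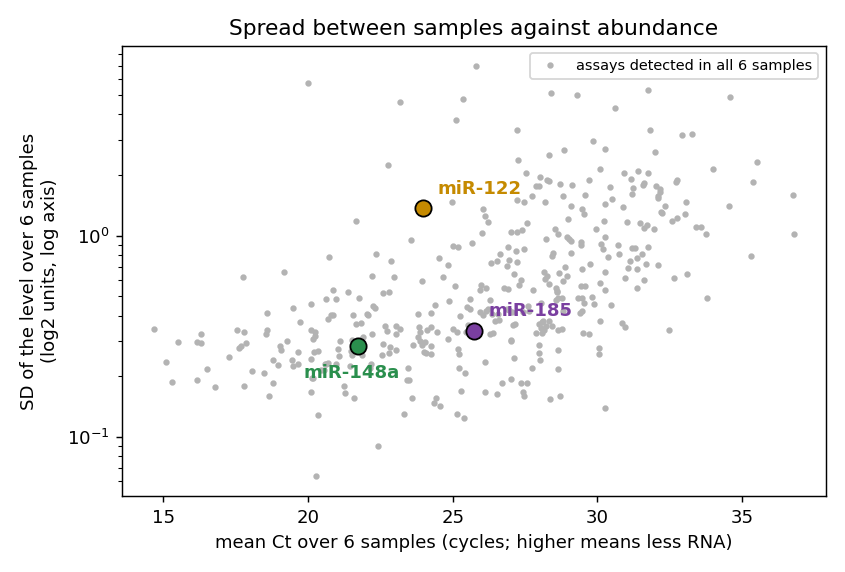
SD of the level over the 6 samples (log2 units, log axis) against the mean Ct (cycles) of the 394 assays detected in all samples. MiR-122 (SD 1.37) stands above most assays of similar Ct, and miR-148a (0.28) and miR-185 (0.34) lie among them. The SD of miR-122 ranked 5th of the 143 assays with a mean Ct under 25 and 66th of all 394.

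MiR-192 and miR-194, which are enriched in liver and gut, did not share the spread of miR-122. The level of miR-192 was -4.01, -4.41 and -4.59 with and -4.79, -4.50 and -4.38 without the deletion, a range of 0.77 log2 units against 3.43 for miR-122. MiR-194 ranged over 0.39 log2 units, from -4.88 to -4.49. All 3 miRNAs of this list were detected in 6 of 6 samples. Their summed level, the log2 of the amounts added on the linear scale, ranged from -3.43 to -2.10 in EC-Dicerflox and from -3.32 to -2.37 in EC-DicerWT aortas. The highest level of miR-192 was in EC-Dicerflox replicate 1, as for miR-122. EC-Dicerflox replicate 3 and EC-DicerWT replicate 1 had the lowest levels of both miRNAs. EC-Dicerflox replicate 3 was the lower of these samples in miR-122 and EC-DicerWT replicate 1 in miR-192. The Ct of miR-122 minus that of miR-192 ranged from -1.32 to 1.75 cycles and differed by 0.12 cycles between the groups (exact permutation P = 0.9, adjusted 0.9). The part of RNA from tissue outside the vessel in the level of miR-122 was not tested.

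**Figure D4:**
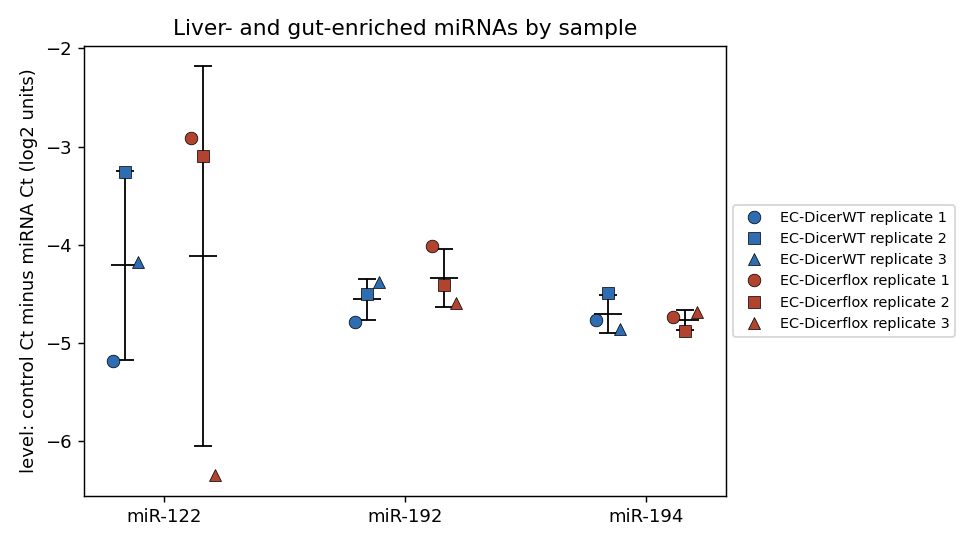
Level of miR-122, miR-192 and miR-194 in each sample (vertical axis: control Ct minus miRNA Ct, log2 units), with the mean and SD of each group (n = 3). The samples of miR-122 spread over 3.43 log2 units, those of miR-192 over 0.77 and those of miR-194 over 0.39.

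The assays whose values ran most closely with each miRNA were found by the SD over the 6 samples of the Ct difference, among 391 other assays detected in all samples. MiR-148a ran with miR-27b (SD 0.07 cycles), miR-21 (0.10) and miR-376b (0.11), against a median of 0.49 over all 391. MiR-185 ran with miR-1198 (0.12), miR-301b (0.15) and miR-148b (0.16), against a median of 0.54. For miR-122 the closest were miR-129-3p (0.79), miR-449a (0.79) and miR-582-5p (0.85), against a median of 1.55. The SD of a Ct difference grows with the spread of the miRNA itself, which was 1.37 log2 units for miR-122. These SDs therefore cannot compare how closely miR-122 and the others were followed. The named assays are the lowest of 391 over 6 samples, and shared variation was not tested.

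Other miRNAs with a reported role in lipid metabolism were taken as 5 lists, with 32 of 33 names on the arrays used, 34 assays and 32 of these tested. The undetected assays were miR-758 and miR-370 on card B. By limma, 2 of the 32 passed the unadjusted threshold (6.25%, against 4.78% of all tested assays), both lower in EC-Dicerflox aortas, and 0 passed after adjustment. The estimates of 24 (75%) lay below 0 (20 with the global mean or snoRNA135 alone and 31 with U6 alone), as did those of 271 of the 439 tested assays (61.7%), and the median change of -0.10 was that of all tested assays (-0.10).

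Among 11 tested assays of the cholesterol efflux list, which repress ABCA1 or ABCG1, 0 passed the unadjusted limma threshold, with changes from -0.25 for miR-106b to 4.15 for miR-302a. MiR-302a, best known from embryonic stem cells, had Ct values of 37.3, 25.1 and 26.9 in EC-Dicerflox and of 33.4, 36.4 and 31.3 in EC-DicerWT aortas, and the groups overlapped. Its change carried a SE of 3.79 (unadjusted limma P of 0.32) and rested on single samples. Leaving out EC-Dicerflox replicate 1 gave 8.13 (unadjusted limma P of 0.012), leaving out replicate 2 of that group gave 1.82 and leaving out its replicate 3 gave 2.50.

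All 6 miRNAs of the list for lipoprotein receptors and selective uptake had estimates below 0, from -0.71 for miR-128a to -0.01 for miR-125a-5p, but only 4 did with the global mean or snoRNA135 alone. The value of miR-128a was -0.10 without EC-DicerWT replicate 2. Of the 6, 1 passed the unadjusted limma threshold, miR-301b. MiR-301b, which targets the LDL receptor, had levels of -2.63, -2.73 and -2.40 in EC-Dicerflox and of -1.78, -2.17 and -1.81 in EC-DicerWT aortas. The groups did not overlap, and the change was -0.67 ± 0.23 log2 units (SE; limma P of 0.031 unadjusted and 0.98 adjusted). Of 20 alternative fits, 13 kept the unadjusted call of miR-301b. The paper followed up miR-301b and miR-103, which it reported as lower on these arrays and on arrays of an earlier time point. Their values here come from the arrays behind that choice, so neither is independent evidence of a direction. Separately, the paper reported both to be lower in human aortic endothelial cells after Dicer was silenced.

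In the cluster of miR-96, miR-182 and miR-183, which SREBP-2 is known to activate, the changes ranged from -2.14 ± 0.88 log2 units (SE) for miR-183 to 0.04 for miR-182, with an unadjusted limma P of 0.057 for miR-183. The groups of miR-183 overlapped, 7 of 20 alternative fits gave it an unadjusted limma P under 0.05, among them U6 alone (0.014) and the replicate block (0.017), and its change ran from -2.82 without EC-Dicerflox replicate 3 to -1.29 when replicate 1 of that group was left out. In the list for hepatic lipid output, 0 of 5 tested assays passed, with changes from -0.52 for miR-34a to 0.02 for miR-30c, which represses the lipoprotein assembly factor MTP. Without EC-DicerWT replicate 2 the change of miR-34a was -0.07. In the list linked to adipocytes and insulin, 1 of 7 passed, with changes from -0.70 for miR-103 to 0.24 for miR-335-5p. The latter was 0.61 without EC-Dicerflox replicate 1 (unadjusted limma P of 0.048) and 0.02 when replicate 3 of that group was left out.

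The sequences of miR-103, whose change was -0.70 ± 0.25 log2 units (SE, unadjusted limma P of 0.034, adjusted 0.98), and of miR-107 are given because they share a seed (capitals, bases 2 to 8) and differ by G22C only.
miR-103: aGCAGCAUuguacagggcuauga
miR-107: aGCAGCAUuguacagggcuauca
MiR-103 comes from 2 loci, chr11:35782447-35782469 and chr2:131288103-131288125 (both plus strand), and miR-107 from chr19:34820700-34820722 (minus strand) of GRCm38.p6. MiR-107 changed by -0.57 ± 0.39 log2 units (SE, unadjusted limma P of 0.20, adjusted 0.99). The unadjusted call of miR-103 was kept in 14 of 20 alternative fits. Both miRNAs are known to dampen insulin signalling in liver and fat.

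**Figure D5:**
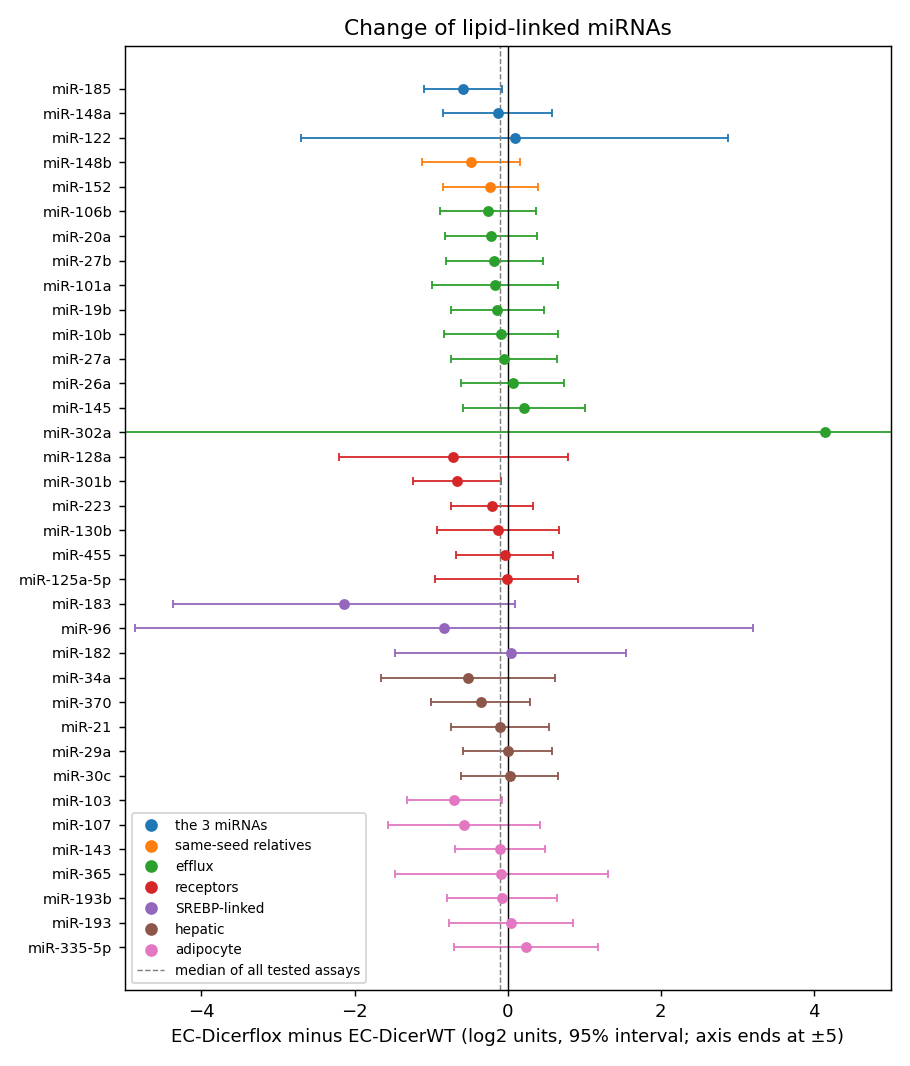
Change (EC-Dicerflox minus EC-DicerWT, log2 units) with the 95% interval from limma for 36 card A assays, coloured by list, with a dashed line at the median of all tested assays (-0.10). The intervals of miR-185, miR-301b and miR-103 lie below 0, and that of miR-302a runs past both ends of the axis.

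Markers of the labelled tissue were present. The smooth muscle miRNAs miR-143 and miR-145 had Ct values from 14.5 to 16.5, and the endothelial miR-126-3p and miR-126-5p from 17.2 to 21.3, in all 6 samples. The summed level of the 5 leukocyte miRNAs ranged from 0.76 to 1.57 in EC-Dicerflox and from 1.04 to 1.74 in EC-DicerWT aortas, and that of the endothelial miRNAs from 1.98 to 2.76 and from 2.14 to 2.82. The summed levels of the erythrocyte, striated muscle and brown fat lists overlapped between the groups as well. Amounts are added on the linear scale, so each sum mostly follows the most abundant miRNAs of its list. Within the striated muscle list, the cardiac miR-208 (Ct from 30.1 to 33.2) was lower in EC-Dicerflox aortas without overlap, by estimate at 31.9% of the EC-DicerWT level (change of -1.65 ± 0.53 log2 units, SE; limma P of 0.024 unadjusted and 0.98 adjusted). The rest of that list overlapped between the groups, with changes of -0.15 for miR-1, 0.07 for miR-133a and 0.23 for miR-133b. The mean Ct of the control RNAs differed by 0.16 cycles between the groups (exact permutation P = 0.7). U6 went against the other controls, with a difference of -0.22 cycles (EC-Dicerflox minus EC-DicerWT) against 0.15 to 0.34.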

How the data were processed

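Total RNA of whole aortas, 1 sample per mouse, was reverse transcribed and preamplified with primer pools for rodents before it was loaded on TaqMan array cards. Raw Ct values, with no reference subtracted, were deposited by the authors, and the baseline and threshold settings are not given in the sources used here. Of 608 rows, 10 were assays of 5 control RNAs (snoRNA135, snoRNA202, U6, U87, Y1), whose mean Ct after averaging the 2 cards was the reference. Cards A and B were told apart by how the assay numbers are written. Assays with a Ct under 40 in at least 3 of 6 samples (439) were fitted by limma 3.58.1 under R 4.3.3 (moderated, two-sided tests), with Benjamini-Hochberg adjustment over all of them, and undetected wells were kept at 40. Intervals are 95% intervals of this fit. For single values, all 20 assignments were enumerated in an exact permutation test (two-sided). The number of mice limits the precision, since Ct values carry no read depth.

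The miRNAs, lists and tests were chosen with earlier results of these data known. Named were the 3 miRNAs, their same-seed relatives, listed miRNAs with an unadjusted P under 0.05, the lowest and highest change of each list, miR-192 and miR-194, and the 3 assays closest to each miRNA. MiR-208 and the rest of its list were named in addition to these. Other references, filters, a limit of Ct 35, variance models, a replicate block, a batch term and left-out samples were tried as alternatives. Replicate numbers were not used as pairs in the main fit, only as a block in an alternative. The deviations of same-numbered samples correlated across assays at 0.24, 0.03 and 0.39, which does not show these samples to be unrelated.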

Additional observations from a re-analysis of the deposited data

Results flagged for a closer look

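An assay for a plant miRNA, a negative control that enters no comparison, had a Ct of 39.776 on card A in EC-Dicerflox replicate 1 and was at 40 in every other sample and on card B. The highest Ct of miR-122, miR-148a or miR-185 in any sample was 26.7, for miR-122.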

How the results depend on the processing

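MiR-185 stayed lower in all 20 alternative fits, of which only those with another reference could have turned its sign. No adjusted limma P of miR-122, miR-148a or miR-185 was under 0.05 in any of the fits. The number of these miRNAs with an unadjusted P under 0.05 was 1 in the main setting and 0 in 11 alternatives: U6 alone, snoRNA135 alone, both together, the replicate block, replicates 1 and 2 alone and each fit that left out 1 sample (0 to 0). With U6 alone the change of miR-122 was -0.29, with U6 plus snoRNA135 it was -0.074, and it ran from -0.51 to 1.20 when each sample was left out. That of miR-148a ranged from -0.36 to 0.038 in the latter fits. All tested assays with an unadjusted P under 0.05 numbered 11 with U6 alone and 8 to 22 with 1 sample left out (14 without EC-Dicerflox replicate 1, 8 without EC-Dicerflox replicate 2, 13 without EC-DicerWT replicate 1 and 11 without EC-DicerWT replicate 3, against 21). An adjusted P under 0.05 was found for 1 assay under the batch term for the third replicates and for 1 in replicates 1 and 2 alone. The other lipid-related miRNAs with an unadjusted P under 0.05 numbered 2 in the main setting, 1 under U6 alone, 4 under U6 plus snoRNA135, 4 under the batch term, 0 in replicates 1 and 2 and 0 to 3 with 1 sample left out. Among values within a sample, miR-148a against miR-152 was -0.066 in replicates 1 and 2 and -0.0043 to 0.18 with 1 sample left out, and miR-122 against miR-192 was -0.79 in replicates 1 and 2 and -0.86 to 0.67 with 1 sample left out.

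Small changes of other miRNAs turned sign. U6 alone as reference moved every change by -0.38 log2 units, and U6 with snoRNA135 by -0.16. With U6 alone the change was -0.16 for miR-192, -0.34 for miR-182, -0.35 for miR-30c and -0.14 for miR-335-5p, and with U6 and snoRNA135 -0.12 for miR-182 and -0.14 for miR-30c. MiR-125a-5p was at 0.043 with the global mean, 0.039 with snoRNA135 alone and 0.033 in replicates 1 and 2, where miR-182 was at -0.17 and miR-30c at -0.059. With 1 sample left out, miR-125a-5p ranged from -0.25 to 0.24, miR-182 from -0.32 to 0.67, miR-30c from -0.15 to 0.15 and miR-194 from -0.14 to 0.045. With the replicate block the change of miR-185 was -0.58 and no adjusted call changed. Causes were not tested. Strand pairs of miR-33 and miR-378 were not run, since these assays were not analysed here.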
